A study of Homo sapiens with 12 samples.

Results

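The RNA that comes down with an unspecific antibody was compared between cells with and without added miR-143. Rows of the gene table were kept when their average FPKM (fragments counted per transcript length and per library size) was at least 10 in either mock group, which left 4963 of 61782 rows. The samples came from K562, a cell line grown from a human leukemia with erythroid features, which in the study carried C/EBPα fused to the estrogen receptor. Cells infected with the pLV-control vector gave the group called control_IgG here, and cells infected with pLV-miR-143 gave miR143_IgG. Both populations went through viral infection, selection and growth in puromycin and the same RNA immunoprecipitation kit, and both vectors carry a red fluorescent reporter. The study describes its precipitations as independent experiments, and the labels do not say whether the samples of a group came from separate cultures. The labels name 3 samples for each of these groups, and as many precipitated with an antibody against AGO2 from each population. The values used are the authors' average per group, 1 per row, so there is no replicate check and nothing could be tested, and every difference is a difference between 2 averages. The selection also fixes part of the result, because a row that is kept only through its higher group must differ.

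A mock precipitate shows what adheres to beads, antibody and tube without being bound by the protein of interest. Abundant RNAs in stable ribonucleoprotein particles are known to be common in such material. They include the U RNAs that remove introns, 7SL RNA of the signal recognition particle, 7SK RNA, which holds back a transcription elongation factor, and the RNA parts of RNase P and RNase MRP. The mRNAs of ribosomal proteins, histones and other highly expressed genes are the next layer. A level in the mock precipitate is therefore the reference against which an enrichment by AGO2 is read.

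The results turn on a few small RNAs, whose sequences are shown because they stand at the opposite ends of stability. RNU4-2 and RNU4-1 are both genes of U4 snRNA, and they gave the highest values in both groups. RNU4-2 lies at 12:120291763-120291903 and RNU4-1 at 12:120293097-120293237 (GRCh38, both on the minus strand, GENCODE 29). Over their 141 bases the copies differ at 4 positions, printed in capitals, and are 97.2% identical, so that reads can fall on either row and the split between them is uncertain.
RNU4-2: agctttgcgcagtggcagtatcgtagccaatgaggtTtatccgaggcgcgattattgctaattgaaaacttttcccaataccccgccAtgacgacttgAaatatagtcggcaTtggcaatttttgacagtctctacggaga
RNU4-1: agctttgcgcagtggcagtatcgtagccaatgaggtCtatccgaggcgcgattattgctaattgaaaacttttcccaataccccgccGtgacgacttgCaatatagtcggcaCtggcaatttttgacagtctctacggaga

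RNY1 is a Y RNA bound by the Ro60 protein (7:148987136-148987248, minus strand, 113 bases). RNU6ATAC is the U6atac snRNA of the minor spliceosome (9:134164439-134164564, minus strand, 126 bases). Both rows were far apart between the groups. RNY1 was still high in its lower group, at 9401.5 FPKM in miR143_IgG, while RNU6ATAC was at 0 in control_IgG. Both sequences are given in lower case throughout.
RNY1: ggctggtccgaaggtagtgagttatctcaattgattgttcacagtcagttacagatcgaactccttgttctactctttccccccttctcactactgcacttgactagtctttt
RNU6ATAC: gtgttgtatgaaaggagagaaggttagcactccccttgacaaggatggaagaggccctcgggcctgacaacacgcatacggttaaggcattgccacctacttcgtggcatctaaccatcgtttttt

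The added miRNA is the check of the labels. RefSeq (GRCh38.p14) places the MIR143 hairpin at 5:149428918-149429023 on the plus strand, and both of its mature products are printed with the seed, bases 2 to 8, in capitals.
miR-143-5p: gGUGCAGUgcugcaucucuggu
miR-143-3p: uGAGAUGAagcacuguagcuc

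The MIR143 row held a 0 for control_IgG and 44781 FPKM for miR143_IgG, where it made up 1.73% of the summed FPKM. The signal thus went with the labels, and the 0 does not show that control cells lack the miRNA. It was the only miRNA gene with a name of its own among the members, and in FPKM a gene of 106 bases depends strongly on the length correction, so that the value is no level of the mature miRNA.

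The cells matched their label in their marker mRNAs. Of 17 erythroid genes with a row of their own, 11 were members, among them GATA1 and KLF1, which encode erythroid transcription factors, and their summed level was 561 FPKM in control_IgG and 644 FPKM in miR143_IgG over all 17. Of 16 granulocyte genes none reached 10 FPKM, 13 were at 0 in both groups, and the highest value was 7.10 FPKM for ITGAM, an integrin chain. Their sums were 8.74 and 7.10 FPKM. Of 12 lymphoid genes none was a member and 9 were at 0 in both groups, with sums of 0 and 5.25 FPKM, and all 8 fibroblast genes were at 0. The number of fragments behind the values is unknown. As a measure of it, the lower edge of the product of FPKM and length (the 10th lowest value above 0 among genes with 1 transcript of at least 500 nt) was 0.756 FPKM kb in control_IgG and 0.0973 FPKM kb in miR143_IgG, 7.78 times lower. Of all rows, 8393 were above 0 in control_IgG and 11453 in miR143_IgG.

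The members held nearly all of the signal, and most of them were not within 2-fold. The 4963 rows held 99.6% of the summed FPKM of control_IgG and 99.4% of that of miR143_IgG. The selection largely fixes these shares, since it keeps every row of 10 FPKM or more in either group. The ratio used is log2 of (miR143_IgG + 1) over (control_IgG + 1), which understates changes of low rows. It had a median of −0.07, quartiles of −1.30 and 1.18 and a standard deviation across rows of 2.30. Within 2-fold lay 2093 rows (42.2%), and within 1.2-fold 664 rows (13.4%). At least 2-fold higher in miR143_IgG were 1376 rows (27.7%) and at least 2-fold lower 1494 rows (30.1%), an order that turned to 1515 against 1337 when both groups were scaled to the same median. At least 10-fold higher were 542 rows (10.9%) and at least 10-fold lower 304 rows (6.13%).

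A large part of this came from rows high in 1 group alone. In both groups 2442 rows (49.2%) reached 10 FPKM, and of these 1805 (73.9%) lay within 2-fold, 1 was 10-fold higher and 5 were 10-fold lower. A further 1238 rows reached 10 FPKM only in miR143_IgG and 1283 only in control_IgG. Members listed at 0 numbered 428 in control_IgG and 139 in miR143_IgG, and all of them are among the rows past 10-fold, which leaves 114 higher and 165 lower rows with a value above 0 on both sides. Of the 275 rows at 0 in control_IgG whose transcript length is known, 269 had a value in miR143_IgG at least 10 times the low edge of control_IgG, and of the 83 such rows at 0 in miR143_IgG all were as far above the edge of that group. The selection largely fixes these counts. At 1 kb, 10 FPKM is already 13.2 times the low edge of control_IgG and 103 times that of miR143_IgG. The longest transcript was used for the length, so the counts do not show that the zeros lie above detection. The part of the unequal low edges in the zeros was not tested. The lowest member had 10.0025 FPKM in its higher group, and the highest row left out had 9.99949 FPKM.

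**Figure D1:**
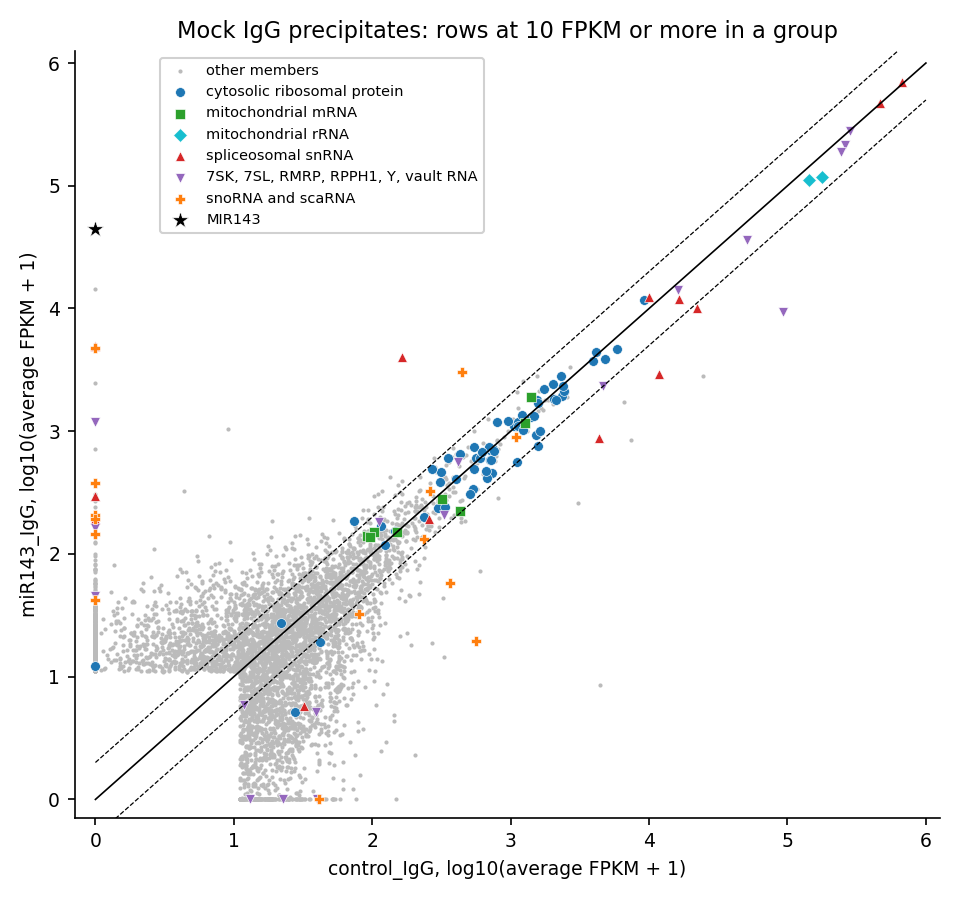
Average FPKM of each of the 4963 rows in control_IgG (horizontal) and miR143_IgG (vertical), both as log10(FPKM + 1), with 1 point per row, a solid line at equal values and dashed lines at 2-fold. Most ribosomal protein and all mitochondrial rows lie between the dashed lines, as do the U4, 7SL and 7SK rows at the top, while many other snRNA and most snoRNA rows lie outside, and rows at 0 in 1 group lie on an axis, with MIR143 as the star.

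How far a row agreed depended on its level. Of the 1055 rows with a mean of both groups under 10 FPKM, 12.0% lay within 2-fold, where the selection itself demands a difference. The share was 36.8% of 1583 rows from 10 to 20 FPKM, 49.6% of 1392 rows from 20 to 50 FPKM, 67.6% of 472 rows from 50 to 100 FPKM and 77.2% of 219 rows from 100 to 200 FPKM. It reached 86.7% of 113 rows from 200 to 500 FPKM and 90.4% of 52 rows from 500 to 1000 FPKM. The 77 rows at 1000 FPKM or more fell out of this order, with 76.6%. Among protein-coding genes with 1 name the shares were 92.4%, 100% and 96.6% in the last 3 ranges, and the exception among the 29 of them at 1000 FPKM or more was RPS21, at 1564 FPKM in control_IgG and 758 FPKM in miR143_IgG. Of the 16 small or structural RNA genes in this range 9 lay within 2-fold, 4 were higher and 3 lower.

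Length showed a second gradient. Of 21 rows whose longest annotated transcript was under 200 nt, 4 lay within 2-fold (RNU4-2, RNU4-1, RNU5E-1 and the pseudogene COX7CP1), and 11 were listed at 0 in control_IgG and none in miR143_IgG. Between 500 and 1000 nt 57.1% of 196 rows lay within 2-fold, and at 4000 nt or more 35.3% of 1274 rows. Long rows were also low, with a median of 15.2 FPKM in control_IgG at 4000 nt or more against 35.8 FPKM between 500 and 1000 nt. Once the mean level was 50 FPKM or more, the share was 22.2% under 200 nt, 72.0% between 200 and 500 nt, 80.5% between 500 and 1000 nt, 81.9% between 1000 and 2000 nt, 73.2% between 2000 and 4000 nt and 70.5% above. The shortest rows thus stood apart at high levels too, and the fall with length was smaller there.

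**Figure D2:**
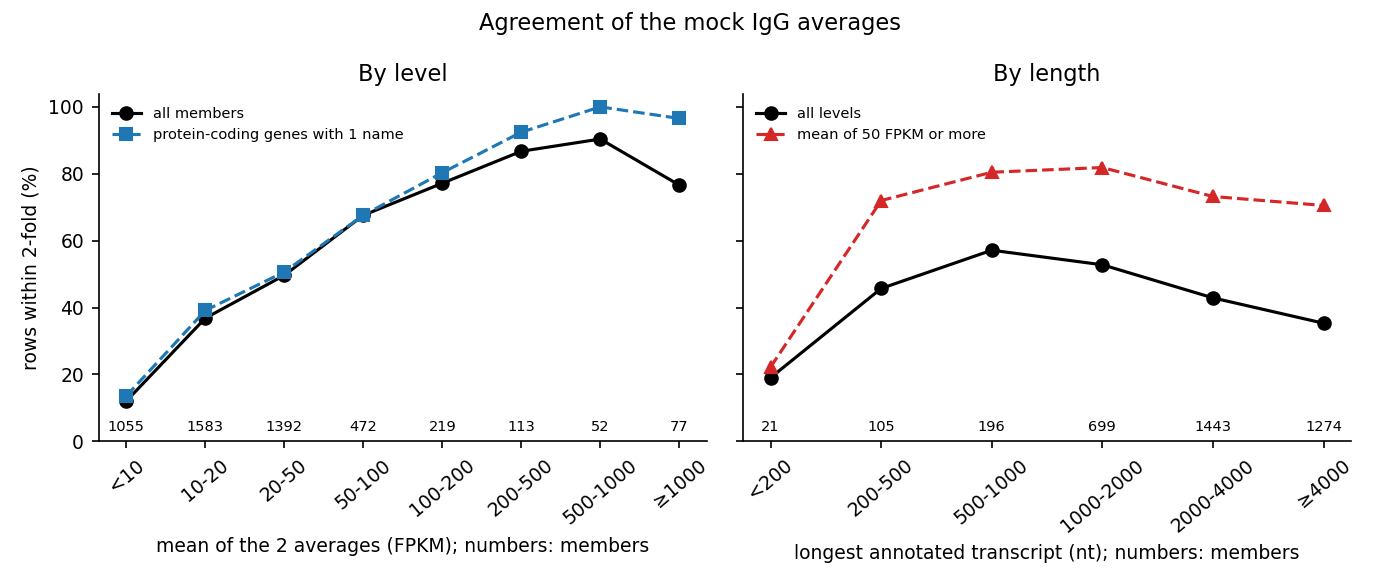
Share of rows (%) within 2-fold between the mock averages, by the mean of both averages (left, in FPKM) and by the longest transcript (right, in nt), with the number of members in each range above the axis. The share climbs from 12.0% to 90.4% with level and falls to 76.6% in the highest range, and rows under 200 nt stay at 19.05% (22.2% for a mean of at least 50 FPKM).

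Of the 10 rows with the highest mean log2 level, all but RNY1, described below, lay within 2-fold. RNU4-2 was at 675467 FPKM in control_IgG and 706258 FPKM in miR143_IgG, a log2 ratio of 0.06. RNU4-1 was at 463510 and 470895 FPKM (0.02). RN7SK was at 280876 and 277835 FPKM (−0.02). In each of these rows the averages were nearly equal. The 7SL copies RN7SL1 and RN7SL2, which are near-identical and share reads, were at 258306 and 243374 FPKM in control_IgG and at 216838 and 188084 FPKM in miR143_IgG, log2 ratios of −0.25 and −0.37. The rRNAs of the mitochondrial ribosome were at 178102 and 117578 FPKM for MT-RNR2 (−0.60) and at 141972 and 111265 FPKM for MT-RNR1 (−0.35). Together these 7 rows took 79.2% of the summed FPKM of control_IgG and 80.5% of that of miR143_IgG. The RNAs of both nuclear endoribonucleases were close as well, with RMRP at 50596.9 and 36070.3 FPKM (−0.49) and RPPH1 at 16229 and 14123 FPKM (−0.20).

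Of the 100 rows with 1 name and the highest mean log2 level, 88 lay within 2-fold, 3 were higher and 9 lower. The median size of their log2 ratio was 0.30. This ranking places rows at 0 in 1 group low, which favours a high share, and none of the 100 was at 0. By the plain mean, 76.6% of the 77 rows at 1000 FPKM or more lay within 2-fold. The 8 smallest log2 ratios among the 100 rows, all between −0.03 and 0.02, belonged to RPL27, HSPA8, RN7SK, RPSA, LRRC75A-AS1, RNU4-1, RPL37A and RPS9. RPL27, a protein of the large ribosomal subunit, was at 601.8 and 601.6 FPKM. HSPA8, the constitutive HSP70 chaperone, was at 592 and 590 FPKM. LRRC75A-AS1, a noncoding host transcript of snoRNAs, was at 613 and 605 FPKM. The reference mRNAs were also close, with GAPDH at 566 and 584 FPKM (0.04) and ACTB at 262 and 316 FPKM (0.27).

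**Figure D3:**
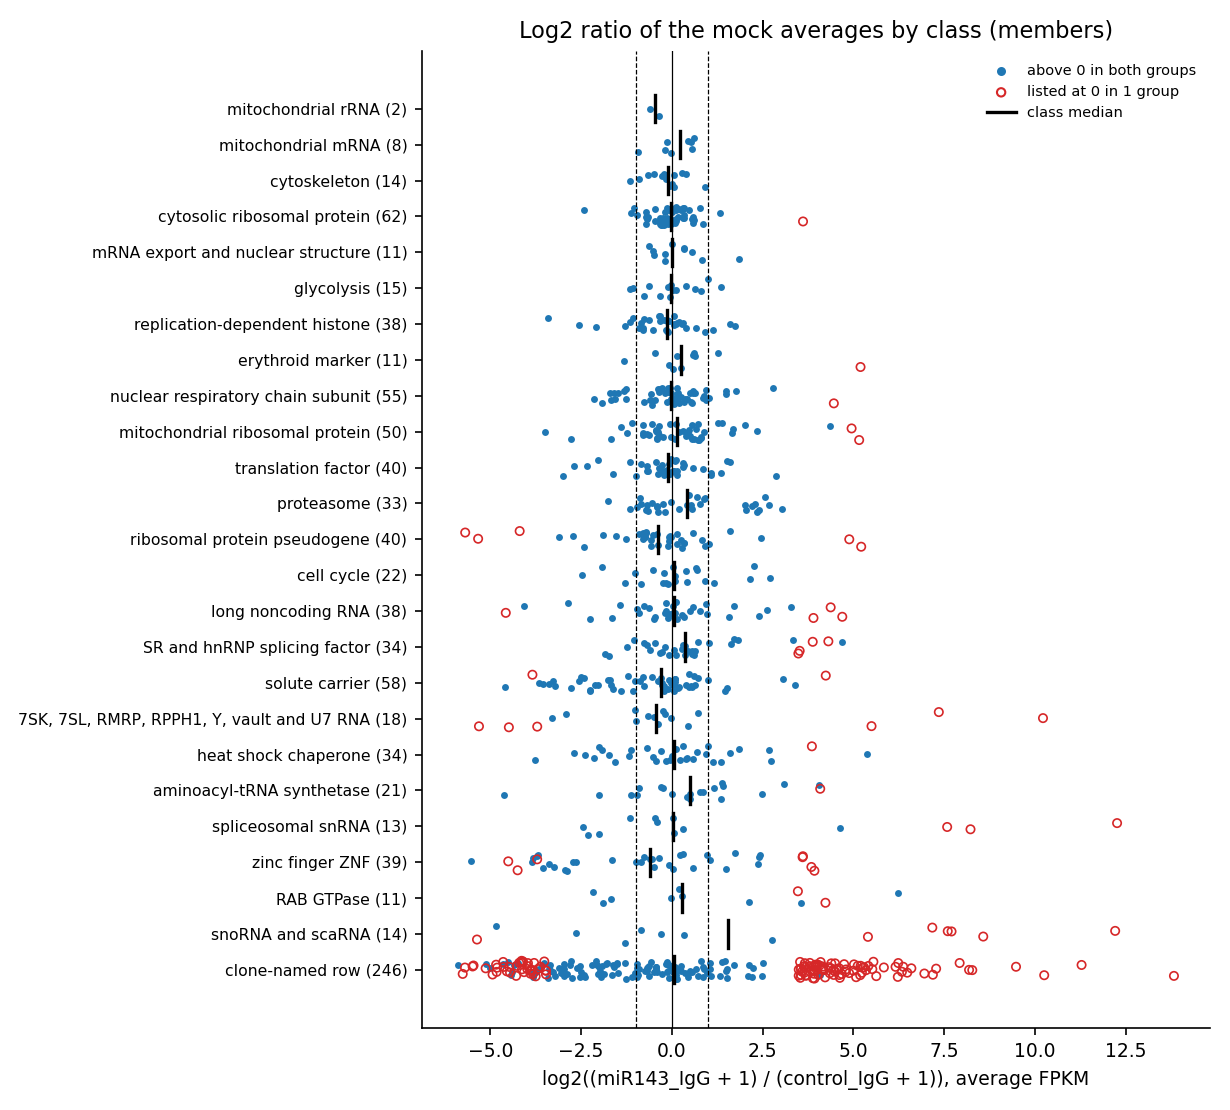
Log2 ratio of miR143_IgG over control_IgG (FPKM + 1) of each member by class, with the number of members in brackets, a black bar at the class median and dashed lines at 2-fold. Filled points are above 0 in both groups and open points are at 0 in 1 group; mitochondrial, cytoskeletal and ribosomal protein rows sit between the dashed lines with few exceptions, and snoRNA and clone-named rows spread to both sides.

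Among mRNAs the stable classes were mostly, but not all, of high level. The list of mRNA export and nuclear structure, described below, had 90.9% within 2-fold at a median of 26.5 FPKM in control_IgG. Of the 62 cytosolic ribosomal protein genes that are members, 57 (91.9%) lay within 2-fold, 2 were higher and 3 lower, against 42.2% within 2-fold of all members and 79.5% of members at the same levels (the shares of the level ranges above, weighted by the class). These level shares, here and below, pool all types of row, including small RNA and clone-named rows. Among protein-coding genes with 1 name the share was 92.4% from 200 to 500 FPKM, 100% from 500 to 1000 FPKM and 96.6% above. The 91.9% of ribosomal proteins is thus not above coding genes in these ranges. Their median was 738 FPKM in control_IgG and 706 FPKM in miR143_IgG. RPL41, the highest, was at 9241.6 and 11676 FPKM (0.34), RPS27 at 5855 and 4705 FPKM (−0.32), RPLP0 of the ribosomal stalk at 3909 and 3735 FPKM (−0.07) and RPL13 at 2063 and 1813 FPKM (−0.19). The exceptions apart from RPS21 were rows of lower level. RPS27L, a stress-induced relative of RPS27, was at 0 and 11.2 FPKM, RPL21 at 72.7 and 185 FPKM (1.34), RPL36AL at 26.7 and 4.15 FPKM (−2.43) and RPL22 at 41.1 and 18.2 FPKM (−1.13). Above a mean of 50 FPKM 56 of 58 lay within 2-fold.

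Mitochondrial transcripts were complete in their agreement. All 8 mRNA rows with 1 name lay within 2-fold, from MT-ND3 of complex I at 427 and 222 FPKM (−0.94) to MT-ND6 at 90.5 and 139.6 FPKM (0.62). The cytochrome oxidase mRNAs MT-CO1 and MT-CO2 were at 1408 and 1905 FPKM (0.44) and at 1272 and 1159 FPKM (−0.13). The row that joins MT-ATP6, MT-ATP8 and MT-CO3, named after its values were seen, was at 2689 and 3344 FPKM (0.31). Against these 100% stood 79.4% of all members at the same levels. Among protein-coding genes with 1 name the share was 80.3% from 100 to 200 FPKM and 92.4% or more in each higher range.

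Cytoskeletal mRNAs were similar, with 13 of 14 rows within 2-fold (92.9%, against 71.8% at the same levels). Most of them had a mean from 100 to 500 FPKM. There the share among protein-coding genes with 1 name was 80.3% up to 200 FPKM and 92.4% above. CFL1 (cofilin) was at 630.5 and 444 FPKM (−0.51), ACTG1 at 392 and 405 FPKM (0.05), TUBA1B at 299 and 267 FPKM (−0.16) and PFN1 (profilin) at 164 and 140.1 FPKM (−0.22). The exception was TUBA1A, at 16.3 and 6.78 FPKM (−1.15). Of 15 genes of glycolysis and glucose uptake 12 lay within 2-fold (80.0%, against 59.6%). ALDOA was at 342 and 273 FPKM (−0.32) and PKM at 80.8 and 126 FPKM (0.64), while the glucose transporter SLC2A3, at 65.8 and 28.8 FPKM (−1.17), and LDHB, at 108 and 51.0 FPKM (−1.06), were lower and ALDOC, at 6.02 and 16.9 FPKM (1.35), was higher. In the list of mRNA export and nuclear structure 10 of 11 rows lay within 2-fold (90.9%, against 53.4%). RAN, the GTPase of nuclear transport, was at 325 and 410.1 FPKM (0.34) and NPM1 at 258 and 381 FPKM (0.56). The importin KPNB1, at 17.8 and 67.2 FPKM (1.86), was the exception.

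Replication-dependent histone mRNAs end in a stem-loop in place of a poly(A) tail and were well represented, with 38 members. Of these 29 (76.3%) lay within 2-fold, 3 were higher and 6 lower, close to the 74.9% of all members at the same levels. HIST1H4C was at 800.5 and 832 FPKM (0.06), HIST1H1C at 630.3 and 588 FPKM (−0.10) and HIST1H2BK at 333 and 305 FPKM (−0.13). The ends of the range were HIST1H3H, at 42.3 and 144 FPKM (1.74), and HIST1H3A, at 48.5 and 3.67 FPKM (−3.41). Histone genes resemble each other closely and reads may be split between them. Of 6 replacement histone genes 3 lay within 2-fold, and H3F3B, the highest, was at 163 and 389 FPKM (1.25).

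The marker genes of the cell line were mostly level. Of the 11 erythroid members 8 lay within 2-fold (72.7%, against 49.8% at the same levels). GATA1 was at 55.3 and 52.0 FPKM (−0.09), KLF1 at 41.9 and 42.8 FPKM (0.03) and the glycophorin GYPC at 207 and 151 FPKM (−0.46). GYPB, of the same family, was at 119.5 and 186 FPKM (0.64). LMO2, at 7.91 and 20.4 FPKM (1.27), and ANK1, at 11.3 and 3.96 FPKM (−1.31), were among those past 2-fold. Globin rows were mixed. The row that joins HBE1, HBG1 and HBG2 with 3 further names was at 237 and 229 FPKM (−0.05), and the row with HBM, HBZ and a pseudogene at 88.2 and 99.97 FPKM (0.18), both named after their values were seen. HBQ1 was at 26.6 and 139 FPKM (2.34), and of the near-identical α-globin genes HBA1 was at 95.3 and 77.2 FPKM (−0.30) and HBA2 at 15.3 and 5.27 FPKM (−1.38).

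Housekeeping complexes of middle level lay between stability and scatter. Nuclear-encoded subunits of the respiratory chain had 39 of 55 rows within 2-fold (70.9%, against 65.7% at the same levels), among them COX6B1, at 683 and 1245 FPKM (0.87), and ATP5B, at 333 and 420.2 FPKM (0.33). Lower rows included UQCRC2, at 99.4 and 29.5 FPKM (−1.72), and ATP5L, at 162 and 49.5 FPKM (−1.69). NDUFA8 was at 0 and 21.0 FPKM. Mitochondrial ribosomal proteins had 35 of 50 within 2-fold (70%, against 50.4%), with MRPL20 at 163 and 92.9 FPKM (−0.81), MRPS2 at 64.8 and 4.88 FPKM (−3.48) and MRPL35 at 0 and 34.7 FPKM. Translation factors had 28 of 40 (70%, against 52.5%). All 15 of them with a mean of at least 50 FPKM lay within 2-fold, led by the elongation factor EEF1A1 at 1579.5 and 1460.2 FPKM (−0.11), with PABPC1, the poly(A)-binding protein, at 244 and 239 FPKM (−0.03). At their low end EIF2B4 was at 4.73 and 41.1 FPKM (2.88) and EIF2B2 at 12.1 and 0.624 FPKM (−3.01).

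In the proteasome and solute carrier lists the rows past 2-fold were unevenly divided, which rested on rows under 10 FPKM in 1 group. Of 33 proteasome rows 22 lay within 2-fold, 9 were higher in miR143_IgG and 2 lower, against 27.7% higher and 30.1% lower among all members. The higher rows included the catalytic subunit PSMB5, at 8.41 and 42.5 FPKM (2.21), PSMA5, at 5.18 and 49.2 FPKM (3.02), the activator subunit PSME2, at 22.3 and 113 FPKM (2.29), and PSMD7, at 4.33 and 30.4 FPKM (2.56). PSME1, the partner of PSME2, was lower, at 32.0 and 8.76 FPKM (−1.76). With the groups scaled to the same median or to the same sum without rRNA, snRNA and MIR143 the counts were 11 against 1 and 12 against 1. Of the 9 higher rows 6 were under 10 FPKM in control_IgG and so are members only through their higher group, and of the 23 proteasome rows at 10 FPKM or more in both groups 19 (82.6%) lay within 2-fold, 3 were higher and 1 lower. Solute carriers showed the opposite order, with 30 of 58 rows within 2-fold, 5 higher and 23 lower (6 against 21 and 6 against 20 after scaling). All 23 lower rows had a mean under 50 FPKM, among them SLC38A1, an amino acid transporter, at 53.9 and 3.35 FPKM (−3.66), SLC25A30 at 24.4 and 0.0422 FPKM (−4.60) and the metal transporter SLC11A2 at 15.9 and 2.17 FPKM (−2.41). Of them 20 were under 10 FPKM in miR143_IgG, and of the 34 rows at 10 FPKM or more in both groups 29 (85.3%) lay within 2-fold, 2 were higher and 3 lower. The higher solute carriers included SLC25A37 (mitoferrin), at 33.6 and 97.9 FPKM (1.51). The part of level and of the unequal low edges in these counts was not tested.

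Among proteins of the spliceosome and of folding more rows were past 2-fold, again largely rows low in 1 group. With 10 FPKM or more in both groups the shares within 2-fold were 75% of 24 splicing factors, 80% of 20 chaperones, 76.9% of 13 aminoacyl-tRNA synthetases and 81.3% of 16 cell cycle genes, beside 75% of 52 respiratory chain subunits. Of 34 SR, hnRNP and snRNP protein genes 20 lay within 2-fold (58.8%, against 48.8%), 10 were higher and 4 lower (10 against 3 after either scaling). SNRPD2, of the Sm ring, was at 341 and 527 FPKM (0.63) and HNRNPA1 at 226 and 245 FPKM (0.12), while HNRNPH1 was at 1.51 and 63.9 FPKM (4.69) and SF3B6 at 110.3 and 29.9 FPKM (−1.85). Chaperones had 16 of 34 rows within 2-fold (47.1%, against 48.0%), 8 higher and 10 lower, an order that turned to 10 against 8 after either scaling. Their high rows were level, with HSPB1 at 164 and 177 FPKM (0.11) and the mitochondrial chaperonin HSPD1 at 101 and 97.3 FPKM (−0.06). CCT2, of the cytosolic chaperonin, was the far exception at 1.64 and 108 FPKM (5.37), although CCT7 was at 111 and 145 FPKM (0.38) and CCT5 at 125 and 92.2 FPKM (−0.44). The stress chaperone DNAJB9 was at 26.5 and 1.03 FPKM (−3.76). Aminoacyl-tRNA synthetases had 10 of 21 rows within 2-fold (47.6%, against 48.0%), with GARS at 64.6 and 65.0 FPKM (0.01), RARS2 at 47.6 and 0.985 FPKM (−4.61), DARS at 0 and 15.96 FPKM and QARS at 85.3 and 225 FPKM (1.39). Cell cycle genes had 14 of 22 (63.6%, against 43.0%), with the helicase subunit MCM4 at 102 and 94.5 FPKM (−0.11), CDK4 at 156 and 62.7 FPKM (−1.31), CCNB1 at 3.92 and 30.7 FPKM (2.69) and BUB1 at 17.2 and 2.26 FPKM (−2.48).

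Long noncoding RNAs split by level. Of 38 rows 24 lay within 2-fold (63.2%, against 50.4%), and of 13 with a mean of at least 50 FPKM 12 did. The snoRNA host transcripts SNHG5 and GAS5 were at 640 and 697 FPKM (0.12) and at 705 and 629 FPKM (−0.16), and MEG3 was at 217 and 241 FPKM (0.15). MALAT1 names 2 rows, at 489 and 736 FPKM (0.59) and at 38.4 and 19.1 FPKM (−0.97). SNHG19, a snoRNA host of 342 nt, was at 17.8 and 184 FPKM (3.29). At lower levels LINC01551 was at 22.8 FPKM and 0 and LINC00470 at 0 and 24.9 FPKM.

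Small nuclear RNAs included very level rows and rows far apart. Of 13 spliceosomal snRNA rows 5 lay within 2-fold (38.5%, against 73.7% of all members at the same levels), 4 were higher and 4 lower. Besides the U4 genes, RNU5E-1 was level at 10029 and 12356 FPKM (0.30), as were 2 of 3 rows named U1, at 16561 and 12003 FPKM (−0.46) and at 255 and 190.4 FPKM (−0.42). The third U1 row was at 22346 and 10125 FPKM (−1.14). The U1 variants RNVU1-7, at 4316 and 873 FPKM (−2.31), and RNVU1-6, at 162 and 4046 FPKM (4.63), differed in opposite directions, and RNVU1-15 was at 0 and 190.4 FPKM. U1 genes are near-identical copies, and how reads were divided among them was not tested.

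The snRNAs of the minor spliceosome, which removes a rare class of introns, did not go together. RNU6ATAC was at 0 and 4904 FPKM and RNU4ATAC at 0 and 298 FPKM, both listed at 0 in control_IgG. RNU11 was at 11804 and 2934 FPKM (−2.01) and RNU12 at 30.9 and 4.81 FPKM (−2.46), both lower in miR143_IgG. The pseudogenes RNU1-85P and RNU2-51P were at 0 in control_IgG and at 267 and 74.9 FPKM in miR143_IgG. Among all rows of 10 FPKM or more in both groups, 5 of 9 snRNA rows lay within 2-fold.

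Of the other small ribonucleoprotein RNAs, the 7SK, 7SL and RNase rows described above were level and several others were not. RNY1, printed above, was at 92639.7 FPKM in control_IgG and 9401.5 FPKM in miR143_IgG (−3.30). VTRNA2-1, a vault-like RNA of 128 nt, was at 0 and 1191 FPKM. TERC, the RNA of telomerase, was at 111 and 182 FPKM (0.71). The 7SK pseudogenes ran from RN7SKP255, at 414 and 562.3 FPKM (0.44), to RN7SKP153, at 38.8 FPKM and 0, and 3 of the 7 were at 0 in miR143_IgG and RN7SKP203 at 0 in control_IgG. In all 9 of 18 rows of this class lay within 2-fold (50%, against 63.4%), and 9 of 10 that reached 10 FPKM in both groups did.

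Small nucleolar and Cajal body RNAs, which guide the modification of rRNA and snRNA, were farthest below the share at their levels among the classes of at least 5 members. Of 14 rows 3 lay within 2-fold (21.4%, against 74.1%), 7 were higher and 4 lower, and 7 were at 0 in 1 group. SNORA12 was at 0 and 4727 FPKM (its name stands on several rows), SNORA23 at 0 and 380.2 FPKM and SNORA66 at 0 and 207 FPKM. SNORA73B was at 445 and 3024 FPKM (2.76). In the other direction SNORD17 was at 563 and 18.6 FPKM (−4.85), SCARNA7 at 366 and 57.5 FPKM (−2.65) and SCARNA6 at 40.3 FPKM and 0. SCARNA2, at 1094 and 896 FPKM (−0.29), SNORD3A (U3), at 258 and 326 FPKM (0.34), and SCARNA10, at 236 and 131 FPKM (−0.84), were the level rows. The median of the class was 1.55, and −0.84 over the 7 rows with 10 FPKM or more in both groups. No structural rRNA row and no mitochondrial tRNA row reached 10 FPKM.

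**Figure D4:**
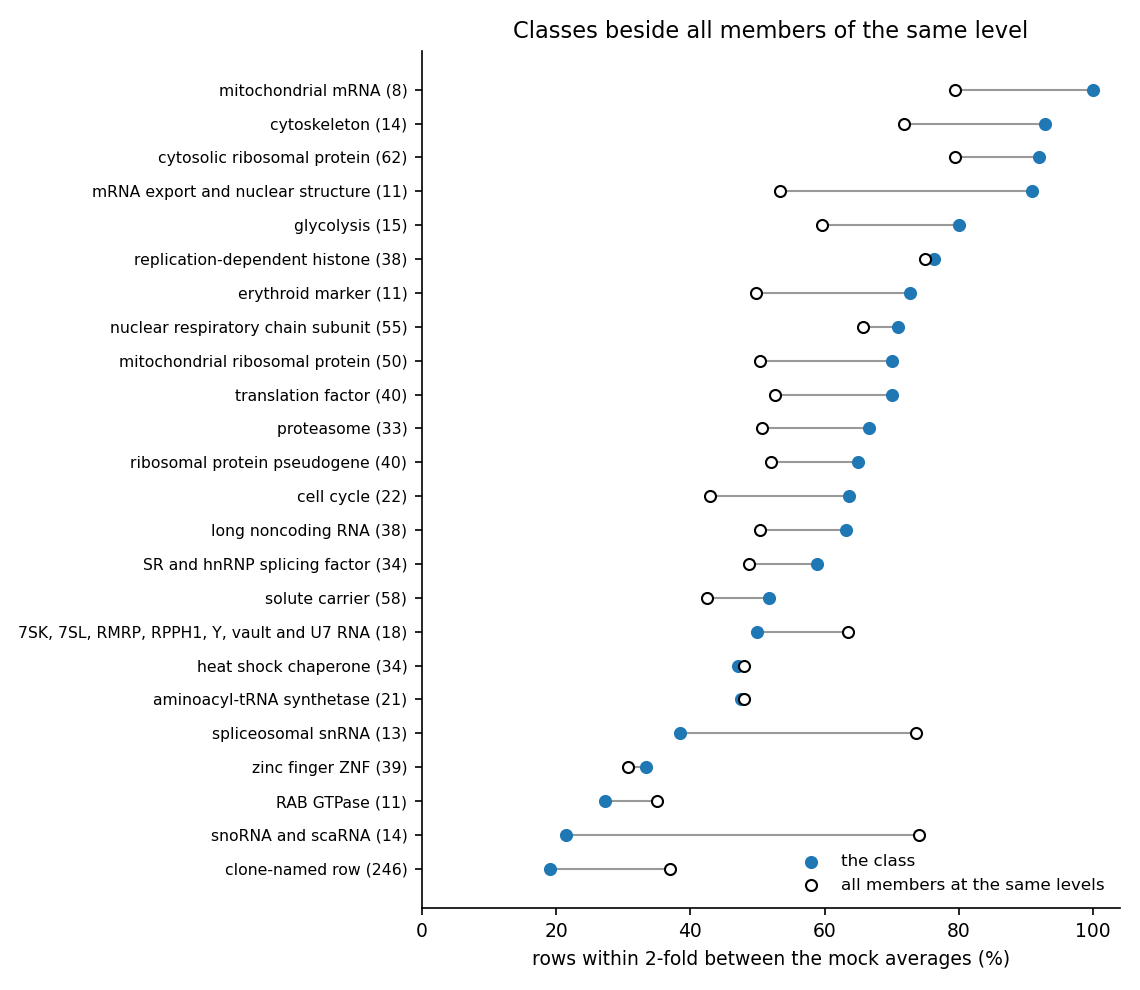
Share of rows (%) within 2-fold for each class (filled) beside the share among all members at the same levels (open), with the number of members in brackets. Most mRNA classes lie above the share at their levels, chaperones and aminoacyl-tRNA synthetases lie at it, and snoRNAs (21.4% against 74.1%), snRNAs (38.5% against 73.7%) and clone-named rows (19.1% against 36.9%) lie below it. The open shares pool all types of row, and from 200 FPKM up the shares of protein-coding genes alone were higher.

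Rows without an established gene name had the lowest share within 2-fold among the classes of at least 5 members. Of 246 rows that carry only a clone name, 47 (19.1%, against 36.9%) lay within 2-fold, 103 were higher and 96 lower, and 124 (50.4%) were at 0 in 1 group, against 11.4% of all members. AL139288.1 was at 0 and 14521 FPKM, AL021807.1 at 7382 and 848 FPKM (−3.12), AP003391.1 at 3079 and 257 FPKM (−3.58) and AL031777.2 at 0 and 2489 FPKM, while AC004453.8, at 1278 and 1210.4 FPKM (−0.08), and RP11-478C6.4, at 1157 and 1078 FPKM (−0.10), were level. These 6 were named after their values were seen. Above a mean of 50 FPKM 23 of 42 clone-named rows lay within 2-fold, against 74.2% of all 933 members there. With 10 FPKM or more in both groups 36 of 53 (67.9%) did, against 73.9% of all members.

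Pseudogenes of ribosomal proteins and other pseudogenes differed in their share within 2-fold over all members and less so at 10 FPKM or more in both groups, where it was 81.5% of 27 and 75% of 28 rows. Of 40 pseudogenes of ribosomal proteins 26 lay within 2-fold (65.0%, against 52.1%), such as RPL23AP42, at 572 and 339 FPKM (−0.75), and RPL35P5, at 238 and 264 FPKM (0.15). RPL39P3, a copy of 156 nt, was far off at 24377 and 2832 FPKM (−3.11), RPL3P4 was at 50.7 FPKM and 0 and RPL34P18 at 0 and 36.1 FPKM. Of 100 other pseudogenes 27 lay within 2-fold (27.0%, against 36.3%) and 39 were at 0 in 1 group. Such copies can take reads of their parent genes, and their values are uncertain for that reason.

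Gene families of low level scattered as all rows of their level did. Of 39 ZNF zinc finger genes 13 lay within 2-fold (33.3%, against 30.7%), 10 were higher and 16 lower (11 against 16 after either scaling). ZNF595 was the highest, at 226 and 280 FPKM (0.31), and ZNF561, at 114 and 1.47 FPKM (−5.54), the farthest. All 9 ZNF genes with 10 FPKM or more in both groups lay within 2-fold. Of 11 RAB GTPases, which direct vesicle traffic, 3 lay within 2-fold (27.3%, against 35.0%). RAB28 was at 3.40 and 327 FPKM (6.22), RAB7A of late endosomes at 3.89 and 56.1 FPKM (3.55) and RAB35 at 53.7 and 11.2 FPKM (−2.17), whereas RAB1B was at 24.3 and 27.8 FPKM (0.19). The remaining genes with 1 name, 3271 rows, had 39.1% within 2-fold (against 39.0%), and the 651 rows that join several genes 45.8% (against 46.6%). Over classes of at least 5 members, the median changed its sign with scaling in 7 of 26, all with a median between −0.14 and 0 as deposited, among them ribosomal proteins, histones and translation factors.

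Named rows that reached 10 FPKM in both groups and still differed were of several kinds. The highest log2 ratios after RNVU1-6 and SNHG19 belonged to USF2, a transcription factor, at 12.7 and 100.4 FPKM (2.89), SNORA73B, SEPW1, a selenoprotein, at 13.0 and 90.8 FPKM (2.71), PHB, which encodes prohibitin, at 16.7 and 114 FPKM (2.70), STX10, a syntaxin, at 10.4 and 70.4 FPKM (2.65), and ACP5, an acid phosphatase, at 17.2 and 107 FPKM (2.56). The lowest after SNORD17 included UBE2Q1, a ubiquitin-conjugating enzyme, at 269.5 and 17.98 FPKM (−3.83), RNY1, BAX, which permeabilizes mitochondria in apoptosis, at 117.5 and 12.4 FPKM (−3.14), RPL39P3, WHSC1, a histone methyltransferase, at 94.1 and 10.3 FPKM (−3.08), and the pseudogene CKS1BP3, at 599 and 71.1 FPKM (−3.06). Small RNAs stand on both sides beside mRNAs, and the short pseudogenes RPL39P3 and CKS1BP3 both stand on the lower side.

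The highest rows with a gene name at 0 in control_IgG were all small RNA genes, namely MIR143, RNU6ATAC, SNORA12, VTRNA2-1, SNORA23, RNU4ATAC, RNU1-85P and SNORA66. Those at 0 in miR143_IgG were a different mix. TP53TG1_2 was at 148 FPKM in control_IgG, the pseudogenes SNRPGP2 and RPL3P4 at 75.01 and 50.7 FPKM, DFNB31, the gene of whirlin, at 57.5 FPKM, THAP6 at 51.3 FPKM, FKSG51 at 45.7 FPKM, CHM, which encodes a Rab escort protein, at 43.7 FPKM and SCARNA6 at 40.3 FPKM. One further row, picked after its values were seen, was the lowest ratio of all. MDC1, whose product works in the DNA damage response, was at 4451 and 7.53 FPKM (−9.03), and its name stands on several rows of the table. Protein-coding genes made up 85.6% of the 10-fold higher rows with a known type and 84.1% of the lower ones, against 94.2% of the rows within 2-fold, and pseudogenes 8.13% and 9.66% against 3.25%.

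Genes of the pathway the study followed were mostly below the limit of 10 FPKM. MAPK7, which encodes ERK5, was at 6.69 FPKM in control_IgG and 0.0988 FPKM in miR143_IgG and is no member. Of 11 rows of its pathway list, 2 were members. MYC was at 159 and 98.1 FPKM (−0.69), and the kinase gene SGK1 at 9.35 and 27.4 FPKM (1.46).

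The same 4963 rows were followed in the precipitates with the AGO2 antibody, which are separate samples from the same cell populations. The labels number them like the mock samples and do not say whether both came from the same lysates. In the AGO2 pair 3817 rows (76.9%) lay within 2-fold, 657 (13.2%) exceeded 2-fold upward in miR143_AGO and 489 (9.85%) did so downward. There 14 (0.282%) were 10-fold higher and 13 (0.262%) lower. The standard deviation of the log2 ratio was 0.991 in the AGO2 pair and 2.30 in the mock pair. The rows were chosen by their mock level, which widens the mock pair, and a row that is low in both AGO2 groups has a ratio near 0 by the added 1 FPKM. Over the 1553 rows with at least 10 FPKM in all 4 groups the gap was smaller, with 76.0% within 2-fold in the mock pair and 85.4% in the AGO2 pair, and median sizes of the log2 ratio of 0.55 and 0.42. Of these rows 1023 lay within 2-fold in both.

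For rows far apart in the mock pair the share within 2-fold in the AGO2 pair was not above the 76.9% of all members. Of the 542 rows 10-fold higher in miR143_IgG, 387 (71.4%) lay within 2-fold in the AGO2 pair, a count that includes the 81 at 0 in both AGO2 groups, and 4 were also 10-fold higher there. Of the 304 rows 10-fold lower, 229 (75.3%) lay within 2-fold, including the 56 at 0 in both AGO2 groups. UBE2Q1 was at 6.29 FPKM in control_AGO and 5.29 FPKM in miR143_AGO and BAX at 19.5 and 26.2 FPKM. RNU6ATAC, VTRNA2-1 and RNVU1-6 were at 0 in both AGO2 groups, and MIR143 was at 0 and 118393 FPKM.

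Several abundant structural RNAs that were close in the mock pair had lower values in miR143_AGO than in control_AGO. RNU4-2 was at 47322 FPKM in control_AGO and 31202 FPKM in miR143_AGO (−0.60), RNU4-1 at 38363 and 15853 FPKM (−1.27), RN7SK at 23862 and 10609 FPKM (−1.17) and RMRP at 3179 and 1263 FPKM (−1.33), of which the first lay within 2-fold. RNY1, far apart in the mock pair, was at 362 FPKM and 0. All 5 rows were lower than in either mock group. The ribosomal protein mRNAs named above as most level in the mock pair lay within 2-fold here too, with RPL37A at 1172 and 1158 FPKM (−0.02), RPSA at 152 and 163 FPKM (0.10) and RPL27 at 93.8 and 59.999 FPKM (−0.64). GAPDH was at 467 and 522 FPKM (0.16) and HSPA8 at 520.4 and 442 FPKM (−0.24).

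**Figure D5:**
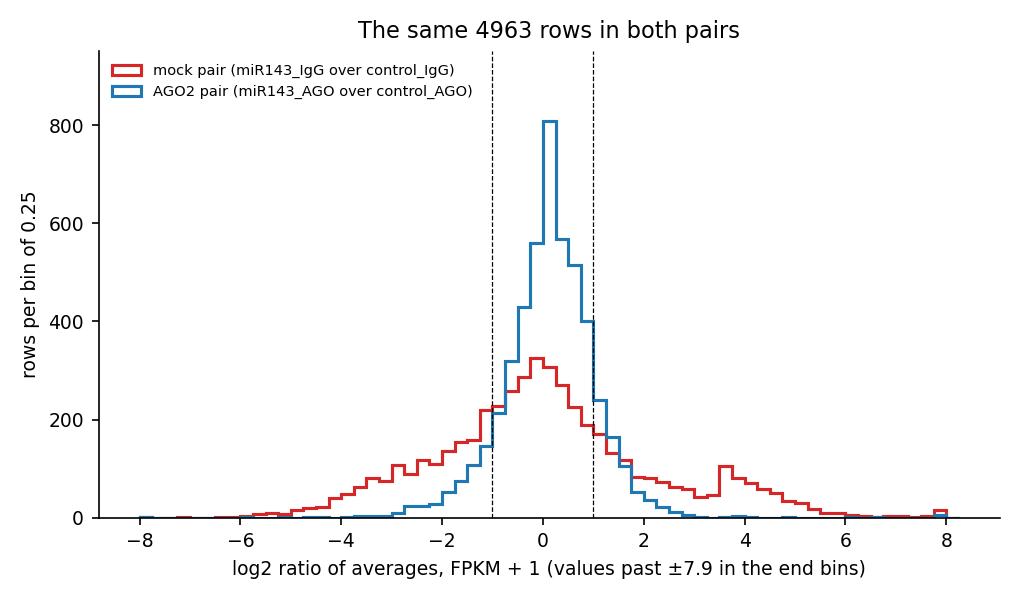
Number of rows per bin of 0.25 in the log2 ratio of miR-143 over control cells, for the 4963 rows in the mock pair (red) and in the AGO2 pair (blue), with dashed lines at 2-fold and values past 7.9 in either direction in the end bins. The mock distribution is wider, with a standard deviation of 2.30 against 0.991, and has a further rise on its right side, where rows at 0 in control_IgG lie.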

How the data were processed

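RNA immunoprecipitation followed by sequencing was deposited for K562 cells in 12 samples, 3 for each of 4 groups. Per the labels, rRNA was removed with Ribo-Zero Gold and cDNA was amplified with random primers for paired-end reads, while the study's methods name a TruSeq kit. The submitters' processing notes name TopHat, Cufflinks and hg38, with no role or order. Versions and annotation are not given in the sources used here. The authors deposited 1 average FPKM per row and group, so no value per sample was used, 0 columns of other samples entered, and the number of fragments is unknown, which allows no interval, floor or test.

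The columns were joined by row order, rows at 10 FPKM or more in at least 1 mock group were kept, and log2 ratios were taken with a pseudocount of 1. Differences of 2-fold and 10-fold are descriptions. Classes came from name patterns, some corrected after values were seen because they took unrelated genes. Members and lists were chosen with earlier results of these data known. Named rows were the 8 most level of the 100 rows with 1 name and the highest mean log2 level. Further ones were the 8 highest and the 8 lowest ratios among rows at 10 FPKM or more in both groups. The 8 highest listed at 0 in each group, members of the classes, and fixed genes were named as well. Some rows these rules name are not reported here. Types and lengths came from GENCODE 29 (GRCh38), which matched 3738 of 3881 members with 1 unrepeated name that is no clone name (96.3%, or 75.3% of all members). Joined, clone and repeated names were not matched. Sequences came from GENCODE 29 and RefSeq (GRCh38.p14). Alternatives were other pseudocounts, minimum levels and scalings, rows of 1 name summed, and joined rows left out. The counting was tested on simulated data. Python 3.11.15, numpy 2.4.6, pandas 2.3.3, scipy 1.17.1 and matplotlib 3.10.9 were used.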

Additional observations from a re-analysis of the deposited data

How the results depend on the processing

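With 10 FPKM required in both groups, 274 rows were 2-fold higher, 363 lower, 1 was 10-fold higher and 5 lower, out of 2442, since rows high in only 1 group drop out. With 1 FPKM in at least 1 group (10172 rows), 3686 were 2-fold higher and 2723 lower and the median was 0.17. With 50 FPKM (1346 rows), the counts were 253, 294, 74 and 48. Scaling miR143_IgG by 1.14 to the same median gave a median of 0.11, and scaling by 1.19 to the same sum without rRNA, snRNA and MIR143 gave 0.17, shifts of 0.187 and 0.252 on the log2 scale, with 1515 and 1561 rows 2-fold higher against 1337 and 1294 lower. The order of the 2-fold counts thus turned under both scalings. The median of snoRNAs and scaRNAs went from 1.55 to −0.84 over the 7 rows at 10 FPKM or more in both groups. A pseudocount of 0.1 gave 1411, 1531, 616 and 443 rows. Of the single log2 ratios 824 values stayed and 10 moved, those of COX6B1, HIST1H4J, SLC2A3, TPM4 and TUBA1A, which crossed 2-fold under both scalings.

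No paired analysis was possible because each group is deposited as 1 average, without replicate values. Leaving out each replicate was not run for the same reason. The unknown depth limits the reading of values of 0 and of low rows.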
